A study of Mus musculus with 32 samples.

Results

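The transcripts described here are 9 genes commonly read as markers of classically activated (M1) macrophages: Nos2, Tnf, Il12a, Il12b, Il23a, Cd80, Cd86, Cd40 and Irf5. They were taken by name from the 54446 genes of the count tables and were followed in all 32 libraries. The libraries came from whole BNL-MEA tumours, a chemically transformed mouse liver cell line injected under the capsule of the left liver lobe of BALB/c mice, and all mice of every group, controls included, carried this tumour. Mice were assigned to groups 5 days after implantation. Where low dose was set against vehicle or DC-101, the study's text gives 5 days of treatment. That text names no sampling day for high dose tumours or for the tumours of the anti-PD1 experiment. The dose experiment (label batch p112) held 4 vehicle, 3 low dose regorafenib (5 mg/kg/day) and 3 high dose regorafenib (20 mg/kg/day) tumours. The DC-101 experiment (p103) held 4 vehicle tumours, 3 tumours on the same low dose, and 3 tumours given DC-101, an antibody against mouse VEGFR2, at 800 µg on days 1, 3 and 5. The anti-PD1 experiment (p101) held 3 tumours each of vehicle, low dose, anti-PD1 antibody (clone RMP1-14, 200 µg per injection), and the combination of low dose and anti-PD1. The sources used here differ on the number of anti-PD1 injections. Regorafenib is an oral multikinase inhibitor that blocks VEGF receptors and other kinases. The age of these mice was not given in the sources used here, 1 implanted cell line stands for the cancer, and whether the replicates of a group came from separate cages or litters is not stated, so p-values measure the spread between these libraries only.

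Macrophages exposed to interferon gamma and to microbial or damage signals take on a state called classical activation, in which they make nitric oxide and inflammatory cytokines and show costimulatory molecules to T cells. Nos2 encodes inducible nitric oxide synthase. Tnf encodes tumour necrosis factor, Il12a and Il12b encode the p35 and p40 subunits of interleukin-12, and Il23a encodes the p19 subunit that pairs with the same p40 to form interleukin-23. Cd80 and Cd86 are the ligands of CD28 and CTLA-4 on T cells, Cd40 is the receptor of CD40 ligand, and Irf5 is a transcription factor of inflammatory cytokine genes. None of the 9 is made by macrophages alone: dendritic cells, B cells, neutrophils and other cells can transcribe several of them. In RNA from whole tumours, fewer cells of a type and less RNA per cell cannot be told apart.

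All 9 identifiers, version included, matched the GENCODE annotation of GRCm38, and all 9 are protein coding. Nos2 lies on chromosome 11 (78920787 to 78960254, plus strand), Tnf on chromosome 17 (35199381 to 35202007, minus), Il12a on chromosome 3 (68690644 to 68698547, plus), and Il12b on chromosome 11 (44400063 to 44414033, plus). Il23a lies on chromosome 10 (128296139 to 128298752, minus), Cd80 and Cd86 on chromosome 16 (38455561 to 38496335, plus, and 36603869 to 36666081, minus), Cd40 on chromosome 2 (165055627 to 165072948, plus), and Irf5 on chromosome 6 (29526625 to 29541871, plus). Counts covered the exons of each gene. Irf5 is the only member whose span overlaps another annotated gene, Tnpo3 on the opposite strand, and because the sources used here do not say which strand column was deposited, reads of that overlap cannot be assigned with certainty.

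RefSeq start windows of 300 bases (250 before to 50 after the annotated start, GRCm38.p6) were at hand for 5 of the 9 members, namely Tnf, Il12a, Il12b, Cd80 and Irf5. The windows printed here are those of Irf5 and Il12b, the members with the highest and the lowest level per length in vehicle tumours, of Tnf, whose change with low dose came nearest to the threshold without passing it, and of Cd80, whose change differed in direction between experiments. Each is given 5′ to 3′ on the strand of the gene, and capitals mark every match, on either strand, to 1 of 6 motifs. These were the first part of an NF-kappaB site (GGGANTT), the core of the interferon response element (GAAACT), the AP-1 site (TGANTCA), the PU.1 core (GAGGAA), the TATA box (TATAAA) and the cyclic AMP response element core (TGACGT).
Irf5, chr6:29526375-29526674: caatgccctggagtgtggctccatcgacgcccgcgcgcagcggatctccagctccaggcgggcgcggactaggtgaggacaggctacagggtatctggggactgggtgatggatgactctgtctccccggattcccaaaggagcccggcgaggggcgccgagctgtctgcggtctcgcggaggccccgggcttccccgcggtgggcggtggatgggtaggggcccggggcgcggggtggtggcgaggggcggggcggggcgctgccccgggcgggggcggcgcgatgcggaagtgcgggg
Il12b, chr11:44399813-44400112: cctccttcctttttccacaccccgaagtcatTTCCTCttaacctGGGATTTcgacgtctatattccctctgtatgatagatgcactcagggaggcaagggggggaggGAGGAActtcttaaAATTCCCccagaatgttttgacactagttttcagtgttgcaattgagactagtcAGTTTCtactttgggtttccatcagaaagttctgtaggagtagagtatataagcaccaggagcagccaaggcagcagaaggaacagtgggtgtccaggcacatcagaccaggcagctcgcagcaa
Tnf, chr17:35201958-35202257: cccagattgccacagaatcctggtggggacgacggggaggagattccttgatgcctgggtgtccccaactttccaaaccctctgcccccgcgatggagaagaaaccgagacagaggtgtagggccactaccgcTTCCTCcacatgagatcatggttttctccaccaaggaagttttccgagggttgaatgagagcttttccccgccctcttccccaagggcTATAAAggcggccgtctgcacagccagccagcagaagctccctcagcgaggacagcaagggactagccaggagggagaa
Cd80, chr16:38458683-38458982: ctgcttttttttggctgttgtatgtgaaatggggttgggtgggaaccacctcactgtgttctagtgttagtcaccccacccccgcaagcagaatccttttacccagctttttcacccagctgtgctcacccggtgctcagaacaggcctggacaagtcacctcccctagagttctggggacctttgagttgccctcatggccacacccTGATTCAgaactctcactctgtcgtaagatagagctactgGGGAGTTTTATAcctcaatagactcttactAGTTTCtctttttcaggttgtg
The Il12b window held most matches, 2 to GGGANTT, 2 to GAGGAA and 1 to GAAACT. The Tnf window held 1 GAGGAA match and a TATAAA match that began 29 bases before the start. The Cd80 window held 1 match each to the NF-kappaB, interferon, AP-1 and TATA motifs, the first and the last of which share a base, and it lies inside the GENCODE span of the gene, downstream of the GENCODE start. The Irf5 window held none of the 6 motifs. Of 2 Il12a windows, the one starting at position 68690394 held 1 GGGANTT match and the one starting at 68691174 held none. Over all 32851 windows of this length, 16.5% held GGGANTT, 15.8% GAAACT, 28.3% GAGGAA, 13.6% TATAAA, 7.81% TGANTCA and 7.51% TGACGT. These matches describe letters in a window, and no measurement here bears on binding to them.

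Total gene counts per library ran from 16767130 to 27693689. High dose replicate 1 stood apart from the rest, with 5.37% mitochondrial counts and a TMM factor (the library scaling of edgeR) of 0.678, against at most 2.86% and at least 0.867 in the other libraries. The tumours held macrophages by their defining genes: the mean log2 CPM (counts relative to the library total after TMM scaling) of 15 macrophage identity genes was 5.23 to 8.16. Hepatocyte genes varied far more, from -0.09 to 12.5 on the same scale. Whether their reads came from adjoining liver or from tumour cells was not tested.

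Per length, Irf5 was the most abundant member in the 11 vehicle tumours, at 16 ± 3.68 CPM per kb of exon (SD, n = 11). Cd86 followed at 5.18 ± 2.27, Cd80 at 2.71 ± 1.28, Nos2 at 2.65 ± 2.08, Tnf at 1.4 ± 0.778 and Cd40 at 1.25 ± 0.679 CPM per kb. The interleukin subunits were lowest, with Il12a at 0.356 ± 0.19, Il23a at 0.166 ± 0.0776 and Il12b at 0.102 ± 0.088 CPM per kb. Irf5 and Cd86 did not overlap (lowest Irf5 11.2, highest Cd86 10.7), whereas every other pair of neighbours in this order had overlapping ranges. Differences between 2 genes within the same library were not tested. The interleukin values rest on few reads: over all 32 libraries the raw counts were 2 to 49 for Il12a, 0 to 44 for Il12b and 4 to 86 for Il23a, against 316 to 1890 for Irf5. 4 libraries held no Il12b read, and a count of 0 allows up to 3 reads.

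Tumours of the same group differed most in Nos2. The pooled SD of log2 CPM within the 10 groups (22 degrees of freedom) was 1.54 for Nos2 and 1.09 for Il12b. It was 0.74 for Il12a, 0.72 for Tnf, 0.61 for Cd80, 0.56 for Cd40, 0.53 for Cd86, 0.49 for Il23a and 0.32 for Irf5. Nos2 spanned 0.327 to 85 CPM over the libraries, and both ends of that range were low dose tumours, in the anti-PD1 and the DC-101 experiment.

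**Figure D1:**
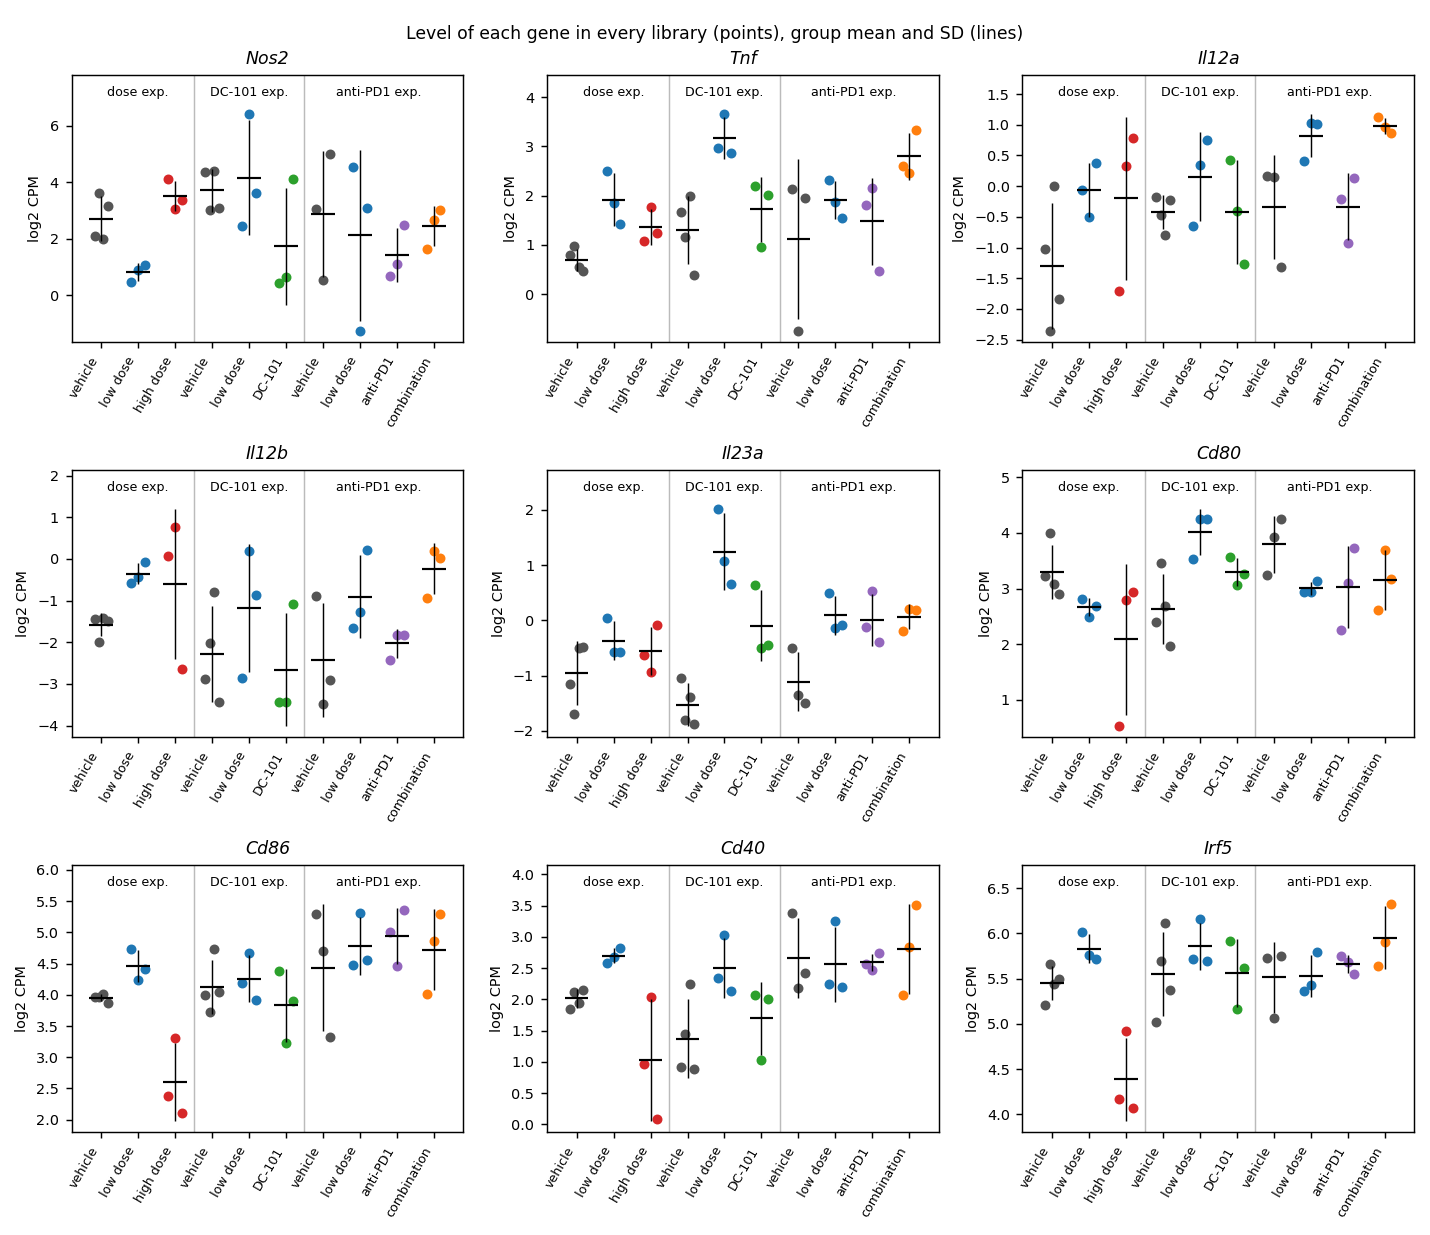
Log2 CPM (y axis, TMM scaled within each experiment) of the 9 genes in the 10 treatment groups (x axis, grouped by experiment), with 1 point per tumour and lines for the group mean and SD. Il23a in low dose tumours of the DC-101 experiment (1.48 to 3.93 CPM) lies above its vehicle tumours (0.18 to 0.395 CPM), and Cd86 and Irf5 in high dose tumours lie below theirs.

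Low dose regorafenib was the treatment measured in all 3 experiments, and it asks which members move with the drug beyond 1 batch. In the fit of 11 vehicle and 9 low dose libraries with experiment as a term, 1 member passed edgeR's quasi-likelihood test at an adjusted p of 0.05 over 17238 genes: Il23a rose 3.32-fold. Of all genes tested 1.52% passed, 98 higher and 164 lower. At an unadjusted p under 0.05 the members numbered 5 of 9 (Il23a, Tnf, Il12a, Il12b and Cd40), against 15.6% of all genes. The members' median log2 change was 0.59 and that of all genes was 0.02, with 7 members positive and 2 negative. Filtering by treatment alone, chosen after seeing the data, left Il12b untested and 1 member called.

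The Il23a level in vehicle tumours was 0.37, 0.228, 0.624 and 0.635 CPM in the dose experiment, 0.395, 0.196, 0.292 and 0.18 CPM in the DC-101 experiment, and 0.618, 0.304 and 0.267 CPM in the anti-PD1 experiment. In low dose tumours it was 0.943, 0.593 and 0.588 CPM, 3.93, 2.0 and 1.48 CPM, and 1.32, 0.817 and 0.853 CPM in the same order. All 9 low dose tumours lay above the vehicle mean of their own experiment, and the groups did not overlap in the DC-101 and anti-PD1 experiments but did in the dose experiment. The log2 change was 1.73 (SE 0.373, 95% interval 0.953 to 2.51, edgeR adjusted p 0.0225). By experiment it was 0.59 (SE 0.424, edgeR adjusted p 0.991) for the dose, 3.2 (SE 0.493, edgeR adjusted p 0.0753) for the DC-101 and 1.31 (SE 0.46, edgeR adjusted p 0.306) for the anti-PD1 experiment, so the call is pooled and no single experiment gave it. Without the DC-101 experiment the change was 0.925 (edgeR adjusted p 0.343). Leaving out the first vehicle replicate of that experiment gave 1.69 (edgeR adjusted p 0.0525). The call was also lost without the anti-PD1 experiment and with replicate number as a block, with values given below. The hepatocyte gene mean, which was higher in low dose than in vehicle tumours for all 12 genes in the pooled fit (median log2 change 1.64, 0 of 12 called), also moved with this comparison, and with that mean as a covariate Il23a changed by 1.52 (edgeR adjusted p 0.0509). By experiment the hepatocyte genes went opposite ways: 12 of 12 were positive in the dose experiment (median 1.71) and in the DC-101 experiment (median 3.36), and 1 of 12 in the anti-PD1 experiment (median -1.87).

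Tnf, the cytokine with most reads among the members, was at 1.65, 1.88, 1.39 and 1.31 CPM in the vehicle tumours of the dose experiment and at 5.55, 3.52 and 2.59 CPM with low dose. In the DC-101 experiment it was at 3.07, 2.16, 3.89 and 1.21 CPM with vehicle and at 7.73, 12.5 and 7.19 CPM with low dose. Neither pair of groups overlapped. In the anti-PD1 experiment the groups did overlap, with vehicle at 4.32, 0.507 and 3.79 CPM and low dose at 4.89, 3.54 and 2.83 CPM. All 9 low dose tumours lay above the vehicle mean of log2 CPM of their experiment, but the pooled change of 1.22 (SE 0.317, 95% interval 0.558 to 1.89) missed the threshold, with an edgeR adjusted p of 0.058. It passed when the anti-PD1 experiment was used without its vehicle replicate 1 (1.38) or 3 (1.32). By experiment the log2 change was 1.32 in the dose experiment (SE 0.327, edgeR adjusted p 0.658), 1.82 in the DC-101 experiment (SE 0.435, edgeR adjusted p 0.119) and 0.38 in the other (SE 0.656, edgeR adjusted p 0.886).

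The subunits of interleukin-12 were higher on average with low dose in each experiment, within wide errors. Il12a changed by 0.96 (SE 0.321, edgeR adjusted p 0.137) and was above the vehicle mean of the same experiment in 8 of 9 tumours. In the anti-PD1 experiment its vehicle tumours were at 1.03, 1.01 and 0.312 CPM and its low dose tumours at 1.24, 1.96 and 1.93 CPM, without overlap. Il12b changed by 1.53 (SE 0.558, edgeR adjusted p 0.177) and was also above that mean in 8 of 9 tumours. Its vehicle tumours in the dose experiment held 7, 3, 8 and 7 reads (0.288, 0.171, 0.294 and 0.278 CPM) and its low dose tumours 17, 19 and 22 reads (0.594, 0.663 and 0.863 CPM), without overlap. In the DC-101 experiment Il12b did not pass the count filter, with 0 to 10 reads in vehicle and 1, 23 and 8 reads in low dose tumours.

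Among the costimulatory genes, Cd40 changed by 0.59 (SE 0.24, edgeR adjusted p 0.235) and was above the vehicle mean of the same experiment in 7 of 9 low dose tumours. In the anti-PD1 experiment its log2 change was -0.12 (SE 0.457). In the dose experiment vehicle tumours were at 3.5, 4.28, 3.78 and 4.37 CPM and low dose tumours at 5.9, 6.35 and 6.98 CPM, without overlap. Cd86 changed by 0.28 (SE 0.204, edgeR adjusted p 0.556) and Irf5 by 0.22 (SE 0.13, edgeR adjusted p 0.441). Macrophage identity genes were positive for 13 of 15 in the same fit (median log2 change 0.303), and by experiment for 15 of 15 (dose), 7 of 15 (DC-101) and 10 of 15 (anti-PD1), with 1 of 15 called in the pooled fit, Fcgr1 (0.73, SE 0.179, edgeR adjusted p 0.0467), a receptor for immunoglobulin G. With their mean as a covariate Cd86 was at 0.0402, Irf5 at 0.156 and Cd40 at 0.429, none past the threshold, while Il23a changed by 1.78 (edgeR adjusted p 0.0312).

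Cd80 had opposite signs in different experiments. In the DC-101 experiment it was at 5.17, 10.9, 6.32 and 3.82 CPM in vehicle and at 11.5, 19 and 19 CPM in low dose tumours, all low dose tumours above all vehicle tumours. In the dose experiment it was at 9.22, 15.8, 8.37 and 7.42 CPM in vehicle and at 6.95, 5.55 and 6.36 CPM in low dose tumours, and in the anti-PD1 experiment at 9.35, 15.1 and 18.8 CPM in vehicle and at 7.53, 7.57 and 8.75 CPM in low dose tumours. In both of these all low dose tumours lay below all vehicle tumours. The log2 changes were 1.33 (SE 0.345, edgeR adjusted p 0.14), -0.7 (SE 0.513, edgeR adjusted p 0.991) and -0.86 (SE 0.413, edgeR adjusted p 0.454), and the pooled change was -0.03 (SE 0.306, 95% interval -0.67 to 0.61). The test of the difference between experiments gave an unadjusted p of 0.000466 for Cd80 and 0.00283 for Il23a, both with an edgeR adjusted p of 0.387. No member and 0% of all 17238 genes passed that test after adjustment, and 2 of 9 members and 9.83% of all genes did so before it.

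Nos2, the enzyme most often used to define the M1 state, had no common direction. In the dose experiment it was at 4.16, 12.1, 3.93 and 8.77 CPM in vehicle and at 1.29, 1.78 and 2.04 CPM in low dose tumours, 4.23-fold lower without overlap (log2 change -2.08, SE 0.479, edgeR adjusted p 0.574). With the macrophage identity mean as a covariate, which did not overlap between these groups, this value was -1.19. In the DC-101 experiment vehicle tumours were at 20.4, 8.08, 20.9 and 8.45 CPM and low dose tumours at 5.4, 85.0 and 12.1 CPM, so that 1 tumour set the positive mean. In the anti-PD1 experiment vehicle tumours were at 8.24, 1.37 and 32 CPM and low dose tumours at 23.1, 0.327 and 8.35 CPM, with overlapping ranges. The pooled change was -0.3 (SE 0.716, 95% interval -1.8 to 1.21, edgeR adjusted p 0.89), an interval that holds changes of more than 1 log2 unit either way. It turned to 0.15 when the third vehicle replicate of the anti-PD1 experiment was left out, and to 0.48 when the dose experiment was.

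Within the single experiments edgeR called 0 members for low dose. In the dose experiment 0% of 16525 genes passed for low dose. There 2 of 9 members (Nos2 and Tnf) had an unadjusted p under 0.05, against 4.94% of all genes, and 7 of 9 had groups that did not overlap, against 13.9%. In the DC-101 experiment 0.0248% of 16138 genes passed. There 4 of 8 tested members (Il23a, Tnf, Cd80 and Cd40) had an unadjusted p under 0.05, against 17.1% of all genes, 3 of 8 had groups that did not overlap, against 16.4%, and all 8 were positive with a median log2 change of 1.17. In the anti-PD1 experiment 0% of 16615 genes passed. There 2 of 9 members (Il23a and Il12a) had an unadjusted p under 0.05, against 11.8%, and 3 of 9 had groups that did not overlap, against 14%.

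**Figure D2:**
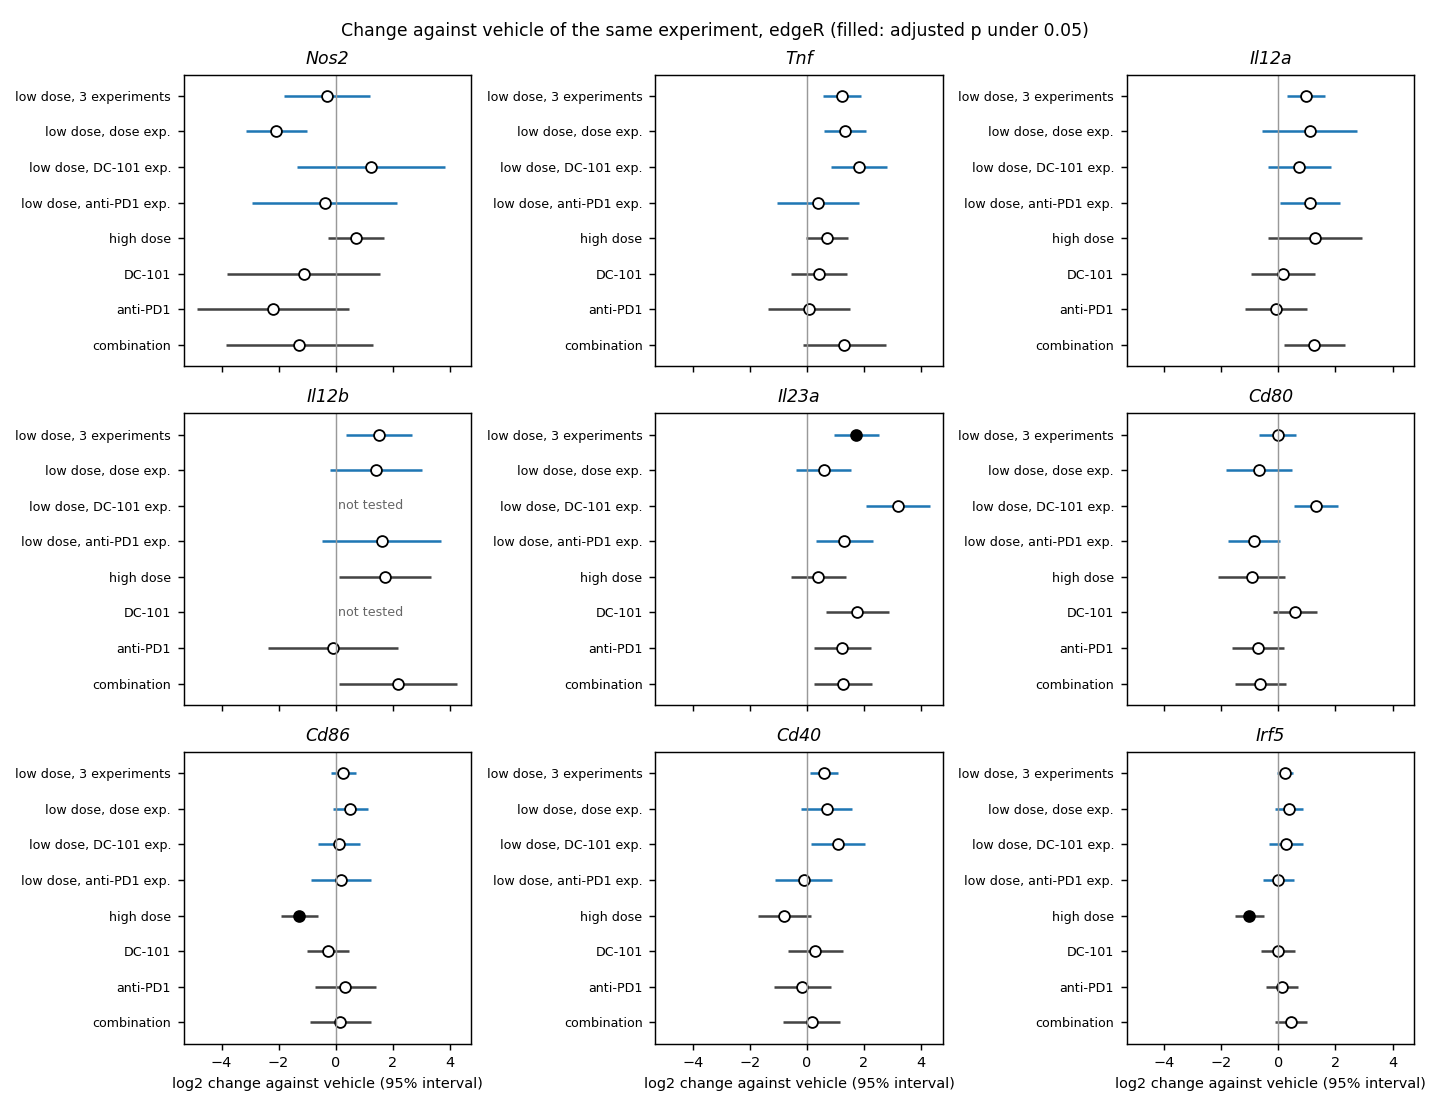
Log2 change against vehicle of the same experiment (x axis, with a point for the edgeR estimate and a line for the 95% interval) of the 9 genes for 8 comparisons (y axis), filled where the adjusted p was under 0.05. Filled points are Il23a with low dose over 3 experiments and Cd86 and Irf5 with high dose, and the intervals of Nos2 are wider in the DC-101 and anti-PD1 experiments than in the dose experiment.

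The genes around the members were read from lists, beside the 1.52% of all genes that passed in the fit over 3 experiments. Among 20 tested signals upstream of classical activation, 3 rose with low dose over 3 experiments: Tlr2 (0.64, SE 0.142, edgeR adjusted p 0.0276), Cd14 (0.71, SE 0.16, edgeR adjusted p 0.0314), both receptors for bacterial products, and Ifngr2 (0.42, SE 0.094, edgeR adjusted p 0.0314), a chain of the interferon gamma receptor. The list's median log2 change was 0.163. Among 24 other classical activation genes 2 rose: Ass1 (0.93, SE 0.155, edgeR adjusted p 0.00327), which remakes arginine, the substrate of nitric oxide synthase, and Fpr2 (1.14, SE 0.252, edgeR adjusted p 0.0278), a formyl peptide receptor. That list's median was 0.424, 15 of 24 positive, but by experiment 16 of 24 were positive in the dose experiment (median 0.57), 23 of 24 in the DC-101 experiment (median 1.08) and 5 of 24 in the anti-PD1 experiment (median -0.581). Better known members of the lists did not pass: Cxcl10 changed by 1.13 (SE 0.451), Il1b by 0.86 (SE 0.453), Ifng by 0.63 (SE 0.672), Cxcl9 by 0.48 (SE 0.611) and Il6 by -0.28 (SE 0.724). Of 14 tested alternative activation genes 0 passed by edgeR and 6 were positive (median -0.137), with Mrc1, the mannose receptor, at 0.24 (SE 0.259). Of 9 tested receptors and partners of the members, such as Il12rb1 and Cd28, 0 passed and 7 were positive (median 0.299). Endothelial genes moved the other way, 7 of 10 lower and 0 higher (median -1.22), with Cldn5 at -2.46 (SE 0.281) and Esam at -1.39 (SE 0.162). Dendritic cell genes (9 of 11 positive, median 0.638), T cell genes (10 of 10, median 0.693) and B cell genes (5 of 5, median 1.15) were higher with 0 called, and neutrophil genes were positive for 3 of 8 (median -0.464). Neutrophil genes also went opposite ways by experiment, with 3 of 8 positive in the dose experiment (median -0.728), 8 of 8 in the DC-101 experiment (median 1.57) and 1 of 8 in the anti-PD1 experiment (median -2.09). The part of these cells in the members' changes was not tested.

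High dose regorafenib, against the same 4 vehicle tumours that served the low dose, gave the other calls among the members. Cd86 and Irf5 fell, and 15.6% of the 16525 genes passed, 1455 higher and 1127 lower. Cd86 was at 15.6, 15.5, 16.1 and 14.6 CPM in vehicle tumours and at 5.15, 9.82 and 4.23 CPM in high dose tumours, a log2 change of -1.27 (SE 0.286, edgeR adjusted p 0.0355). Irf5 was at 36.8, 50.4, 43.4 and 45.1 CPM in vehicle tumours and at 17.9, 30.1 and 16.7 CPM in high dose tumours, a log2 change of -1.02 (SE 0.221, edgeR adjusted p 0.0334). Both genes were lower in all 3 high dose tumours than in any vehicle tumour. The low dose tumours of the same experiment lay above all vehicle tumours for both genes, Cd86 at 26.4, 18.7 and 21.3 CPM and Irf5 at 64.4, 53.9 and 52.5 CPM, without passing the test (edgeR adjusted p 0.991 for each). Macrophage identity genes were positive for 15 of 15 in that low dose comparison (median log2 change 0.652), and with their mean as a covariate the low dose change of Cd86 went from 0.52 to 0.0423 and that of Irf5 from 0.375 to 0.0732. Their mean was 7.56 to 7.85 in low dose and 6.67 to 7.33 in vehicle tumours, so this covariate and treatment cannot be told apart. The difference between the doses was not tested.

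Macrophage identity genes fell with the high dose too, 11 of 15 lower and 0 higher (median log2 change -1.42, against 0.022 for all genes). List calls of this comparison depend on the fit: over all genes 2582 calls became 4 with only the groups compared and 1 with the replicate block. Most of the list calls therefore cannot hold under those settings. Csf1r, the receptor for the macrophage growth factor, changed by -1.68 (SE 0.333, edgeR adjusted p 0.0308) and Adgre1, which encodes F4/80, by -1.21 (SE 0.318, edgeR adjusted p 0.0433), while Cd68 (-0.76, SE 0.267, edgeR adjusted p 0.0697) did not pass. The mean log2 CPM of the list was 5.23 to 6.36 in high dose and 6.67 to 7.33 in vehicle tumours. With this mean as a covariate Cd86 changed by -0.37 (edgeR adjusted p 0.835) and Irf5 by -0.47 (edgeR adjusted p 0.735). As this mean did not overlap between the groups, the covariate moved with treatment and cannot be told apart from it. Calls over all genes became 4 with it, from 2582. Among genes of other cells, against 15.6% of all genes called, 5 of 10 T cell genes, 3 of 6 B cell genes and 2 of 12 hepatocyte genes rose (medians 1.65, 4.3 and 4.24), 2 of 10 endothelial genes fell (median -0.427), and 2 of 11 dendritic cell genes rose and 1 fell (median 1.18). Their part in these changes was not tested apart from the hepatocyte covariate, under which Cd86 was at -1.35 and Irf5 at -1.11, neither past the threshold. The call of Cd86 was lost (edgeR adjusted p 0.0556 to 0.0893) without any 1 of vehicle replicates 1 to 4, low dose replicates 1 or 2, or high dose replicate 1, and that of Irf5 (0.0548 to 0.0847) without any of the same vehicle or low dose replicates, and without 1 library their log2 changes stayed between -1.71 and -1.07 and between -1.33 and -0.9. Both calls were also lost with total count scaling (edgeR adjusted p 0.0626 and 0.063), with only the groups compared (0.076 and 0.0754) and with the replicate block (0.192 each), and that of Cd86 with no filter on low counts (0.0557).

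The other members held to no single direction with the high dose. Cd40 was at 1.87, 4.03 and 0.98 CPM against 3.5 to 4.37 CPM in vehicle tumours (log2 change -0.79, SE 0.414, edgeR adjusted p 0.182). It passed (-1.48, edgeR adjusted p 0.047) without high dose replicate 2, and without 1 library it ran from -1.48 to -0.455. Cd80 was at 1.36, 6.85 and 7.6 CPM (-0.95, SE 0.518), with the lowest value in the library that stood apart. Nos2 was at 17.1, 8.21 and 10.2 CPM (0.71, SE 0.439, edgeR adjusted p 0.249), and Tnf at 2.04, 3.34 and 2.27 CPM, above the 1.31 to 1.88 CPM of all vehicle tumours (0.71, SE 0.329, edgeR adjusted p 0.137). Il12b was at 0.962, 1.61 and 0.0784 CPM (1.74, SE 0.719, edgeR adjusted p 0.104) and passed without high dose replicate 3 (2.25, edgeR adjusted p 0.00852). Without 1 library Il12b ran from 0.93 to 2.25. Il12a changed by 1.28 (SE 0.738) and Il23a by 0.4 (SE 0.431), and without high dose replicate 3 they were at 0.745 and 0.0353. In this comparison 3 of 9 members had an unadjusted p under 0.05, against 40.1% of all genes, and 3 of 9 had groups that did not overlap, against 28.3%, shares near those of all genes. The members' median was 0.4. Against 15.6% of all genes called, upstream signals had 5 of 19 genes lower and 0 higher, Cd14 (-1.25, SE 0.191), Ifngr1 (-0.53, SE 0.123), Tlr2 (-0.98, SE 0.233) and Ifngr2 (-0.51, SE 0.137) among them. Of 24 other classical activation genes 2 were called lower and 2 higher, a share near that of all genes. Il1b (-2.75, SE 0.356, edgeR adjusted p 0.0143) and Fpr2 (-1.99, SE 0.35) fell, and Ccl5 (1.46, SE 0.395) and Gbp2 (1.01, SE 0.287) rose. Of 13 alternative activation genes Mrc1 (-1.42, SE 0.269) and Egr2 (-1.3, SE 0.295) fell and Ccl22 (2.55, SE 0.659), a chemokine for regulatory T cells, rose.

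DC-101 was given to ask which changes follow from blocking VEGFR2 alone. Il23a was the only member whose DC-101 tumours did not overlap the vehicle tumours of that experiment, at 1.47, 0.619 and 0.645 CPM against 0.18 to 0.395 CPM (log2 change 1.77, SE 0.494, edgeR adjusted p 0.311). Its change with low dose against the same vehicle tumours, 3.2, is given above. No member passed, and 0% of 16138 genes did. At an unadjusted p under 0.05 there was 1 of 8 members, against 13.2% of all genes, and 1 of 8 had groups that did not overlap, against 13.4%. Nos2 was at 1.25, 1.46 and 17.4 CPM with DC-101 (-1.12, SE 1.18), Tnf at 4.49, 1.86 and 3.92 CPM (0.41, SE 0.435) and Cd80 at 11.8, 8.27 and 9.46 CPM (0.59, SE 0.345). Cd86 changed by -0.27 (SE 0.326), Cd40 by 0.29 (SE 0.428), Il12a by 0.17 (SE 0.497) and Irf5 by -0.01 (SE 0.268). Without 1 library Cd86 reached 0.0121, Il12a -0.395 and Irf5 0.205, so that each of these turned direction. The Nos2 value rested on single tumours, at -3.4 without DC-101 replicate 3 and at -0.575 without DC-101 replicate 1. Without 1 library Tnf ran from 0.173 to 0.735 and Cd40 from 0.134 to 0.688, both lowest without vehicle replicate 4. Hepatocyte genes were positive for 12 of 12 with DC-101 (median 3.81), macrophage identity genes for 11 of 15 (median 0.206), T cell genes for 1 of 10 (median -0.429) and endothelial genes for 1 of 10 (median -1.3), with 0 called. Il23a was at 2.1 with the hepatocyte mean as a covariate and at 1.49 with the macrophage identity mean, neither past the threshold, and the part of endothelial and T cells was not tested.

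Set directly against DC-101, low dose tumours had the higher mean for all 8 tested members (median log2 change 0.771), and none passed: 0% of all genes did. The unadjusted p was under 0.05 for 2 of 8, Tnf and Il23a, against 8.45% of all genes. Tnf differed by 1.42 (SE 0.472, 95% interval 0.352 to 2.48, edgeR adjusted p 0.481) and Il23a by 1.43 (SE 0.499, 95% interval 0.308 to 2.56, edgeR adjusted p 0.492). With Cd40 (0.8, SE 0.459), 3 of 8 had groups that did not overlap, against 11.4% of all genes. Other classical activation genes were positive for 20 of 24 (median 0.951), Cxcl10 at 1.67 and Cxcl9 at 1.41, T cell genes for 10 of 10 (median 1.02), dendritic cell genes for 11 of 11 (median 0.707), neutrophil genes for 8 of 8 (median 0.979) and hepatocyte genes for 0 of 12 (median -0.644), with 0 called in any of these lists. Macrophage identity genes were positive for 4 of 15 (median -0.259), and the macrophage mean ran from 6.99 to 7.61 in low dose and from 7.32 to 7.93 in DC-101 tumours. With the macrophage identity mean as a covariate Tnf was at 1.57 and Il23a at 1.68, with the hepatocyte mean they were at 1.42 and 1.61, none past the threshold, and the part of the other cells was not tested.

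In the anti-PD1 experiment the members' median log2 change with the antibody alone was -0.08. Il23a was at 0.825, 1.36 and 0.675 CPM against 0.618, 0.304 and 0.267 CPM with vehicle, without overlap (1.24, SE 0.462, edgeR adjusted p 0.288), and was the 1 of 9 members with an unadjusted p under 0.05, against 13.7% of all genes, and the 1 of 9 without overlap, against 16.6%. Nos2 was at 1.5, 2.08 and 5.5 CPM (-2.19, SE 1.22, edgeR adjusted p 0.456), Cd80 at 4.71, 8.43 and 13.3 CPM (-0.71, SE 0.412) and Cd86 at 32.1, 22.0 and 41.1 CPM (0.35, SE 0.483). Without vehicle replicate 3 the Nos2 value was -0.668. The remaining 5 members (Tnf, Il12a, Il12b, Cd40 and Irf5) had log2 changes between -0.17 and 0.12 with SE of 0.253 to 1.04, and each turned direction without 1 library. The least certain was Il12b, at -0.1 (95% interval -2.38 to 2.19), which was 2.5 without vehicle replicate 1. Hepatocyte genes were positive for 0 of 12 (median -2.66), neutrophil genes for 0 of 8 (median -1.63), T cell genes for 1 of 10 (median -0.635), other classical activation genes for 3 of 24 (median -0.845) and macrophage identity genes for 11 of 15 (median 0.38). With the macrophage identity mean as a covariate Il23a was at 1.29 and Nos2 at -0.779, and with the hepatocyte mean at 1.17 and -2.75, none past the threshold. The part of neutrophils and T cells was not tested. None of the 16615 genes passed (0%).

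With the combination of low dose and anti-PD1, the 4 members of highest log2 change against vehicle were the cytokine genes, none past the threshold. Tnf was at 6.0, 5.38 and 10 CPM, above every other tumour of that experiment (1.31 against vehicle, SE 0.661, edgeR adjusted p 0.64). Il12a was at 2.09, 1.86 and 1.73 CPM (1.26, SE 0.482, edgeR adjusted p 0.538) and Il23a at 0.783, 1.06 and 1.05 CPM (1.26, SE 0.459, edgeR adjusted p 0.519), both above all vehicle tumours. Il12b, at 10, 28 and 22 reads against 11, 0 and 1 in vehicle tumours, changed by 2.19 (SE 0.942, edgeR adjusted p 0.58), a value that was 4.79 without vehicle replicate 1 and 1.67 without vehicle replicate 2. Irf5 changed by 0.44 (SE 0.254), Cd86 by 0.17 (SE 0.482), Cd40 by 0.16 (SE 0.456), Cd80 by -0.64 (SE 0.412) and Nos2 by -1.27 (SE 1.18). Without 1 library Nos2 ran from -1.8 to 0.259, Cd86 from -0.206 to 0.621 and Cd40 from -0.255 to 0.597. No member passed, 0% of all genes did, 3 of 9 members (Il12a, Il23a and Il12b) had an unadjusted p under 0.05, against 8.2%, and 3 of 9 had groups that did not overlap, against 17.7%. Other classical activation genes were positive for 9 of 24 (median -0.0619), T cell genes for 10 of 10 (median 1.18), B cell genes for 6 of 6 (median 0.945), dendritic cell genes for 9 of 11 (median 0.697) and neutrophil genes for 1 of 8 (median -0.912), with 0 called, and the part of these cells was not tested.

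Against anti-PD1 alone, the combination differed most in the same interleukin-12 subunits. Il12a was at 0.776, 0.436 and 1.01 CPM with the antibody alone, all below the combination (1.34, SE 0.485, edgeR adjusted p 0.479), and Il12b was at 2, 4 and 4 reads, also without overlap (2.29, SE 0.961, edgeR adjusted p 0.541). Tnf differed by 1.24 (SE 0.661), and Il23a by 0.02 (SE 0.438, 95% interval -0.94 to 0.98). Again no member and 0% of genes passed, 2 of 9 members against 8.68% of genes had an unadjusted p under 0.05, and 3 of 9 had groups that did not overlap, against 30.4%. T cell genes were positive for 10 of 10 (median 1.87), with a mean log2 CPM of 1.89 to 3.11 in combination and 0.285 to 1.08 in anti-PD1 tumours, dendritic cell genes for 8 of 11 (median 1.05, mean log2 CPM 1.71 to 2.57 against 0.41 to 1.03), and hepatocyte genes for 12 of 12 (median 2.93). Macrophage identity genes were positive for 5 of 15 (median -0.0742). Mitochondrial counts were 2.34, 1.43 and 1.36% in combination and 0.68, 0.518 and 0.37% in anti-PD1 tumours, and the part of this difference was not tested. With the hepatocyte mean as a covariate Il12a was at 1.4 and Il12b at 3.19, with the macrophage identity mean they were at 1.47 and 2.27, none past the threshold, and the part of T cells and dendritic cells was not tested.

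Over the 32 libraries, with the mean of each experiment subtracted, Cd86, Cd40 and Irf5 varied together and with macrophage identity genes, and the other members did not share that pattern. Pearson's r of log2 CPM is used here only as a measure of likeness, since the libraries share treatments and depth. It was 0.82 for Cd40 and Irf5, 0.78 for Cd86 and Cd40 and 0.72 for Cd86 and Irf5, the last of which was 0.98 in the dose experiment and 0.11 in the anti-PD1 experiment. With the macrophage identity mean it was 0.86 for Cd86, 0.78 for Irf5 and 0.69 for Cd40, values that were higher in the dose experiment (0.96, 0.94 and 0.87) than in the DC-101 experiment (0.62, 0.6 and 0.41) or the anti-PD1 experiment (0.85, 0.29 and 0.63). It was between 0.095 and 0.23 for Tnf, Il12a, Il12b, Il23a and Cd80, and -0.5 for Nos2. Tnf and Il23a had 0.64, and Tnf and Il12b 0.6. Il12b was nearest to the dendritic cell mean (0.84) and the T cell mean (0.83). With any other member r was at most 0.32 for Nos2 and at most 0.39 for Cd80 over the 32 libraries, but not within the DC-101 experiment, where Nos2 had 0.8 with Il12b and Cd80 had 0.79 with Tnf, 0.74 with Cd40 and 0.72 with Il23a. The last 3 were -0.12, 0.28 and -0.35 in the dose experiment and -0.42, -0.0041 and -0.62 in the anti-PD1 experiment. In the dose experiment Nos2 was inverse to Cd86 (-0.78), Irf5 (-0.72) and Cd40 (-0.69), and Cd80 had 0.5 with Irf5. The same Nos2 pairs had 0.51, 0.32 and 0.42 in the DC-101 experiment and -0.44, 0.34 and -0.13 in the anti-PD1 experiment.

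**Figure D3:**
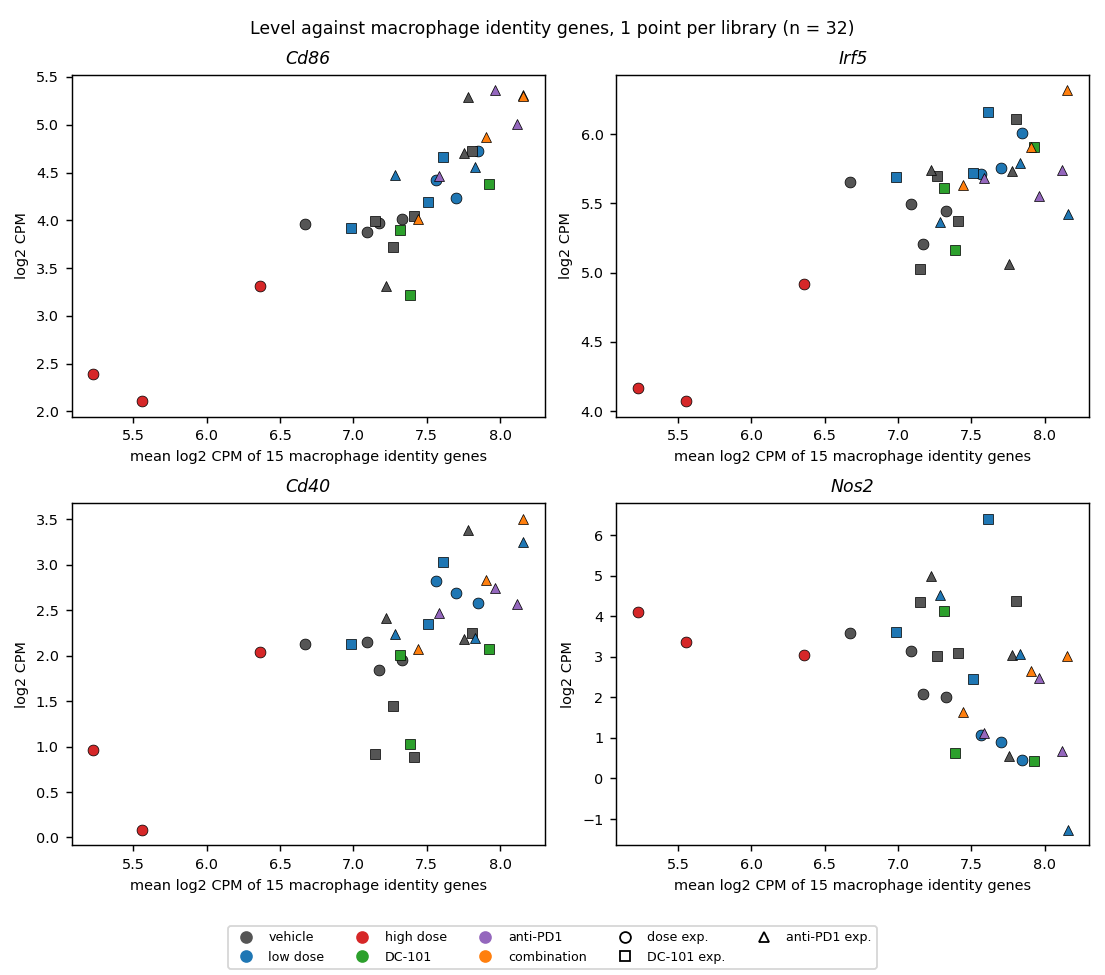
Log2 CPM of Cd86, Irf5, Cd40 and Nos2 (y axes) against the mean log2 CPM of 15 macrophage identity genes (x axes) in the 32 tumours, 1 point each, with color for treatment and shape for experiment. The 3 high dose tumours are lowest on the x axis (5.23 to 6.36) and low for Cd86 and Irf5, and Nos2 runs the other way (r -0.5).

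The 5 genes most like each member out of 15428 compared differed by member. For Cd86 they were Mpeg1 (0.918), Aif1, Cxcl16, Lair1 and Sowahc, and for Irf5 they included Hcls1 (0.94), Treml2, Was and Cd180. For Cd40 they were Klra2 (0.861), Cd52, Irf8, Ptprc and Fcgr1. Most of these are known leukocyte or myeloid genes. For Tnf they were Ccl2 (0.79), a monocyte chemokine, Psd4, B4galt5, Nfkbid and Parp14, and for Il23a they were Sigirr (0.769), Ccl2, Creld2, Fkbp4 and Sec23b. For Nos2 they were Cd274 (0.854), which encodes PD-L1, the hypoxia induced genes Egln3 (0.85) and Pfkfb3 (0.835), Gipr and Rab44. For Cd80 they were Stk3 (0.82), Loxl4, Me2, Slc39a6 and Akr1b8, and for Il12a they were Mab21l1 (0.734), Gzmc, Cpa6, Mab21l2 and Apod.

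**Figure D4:**
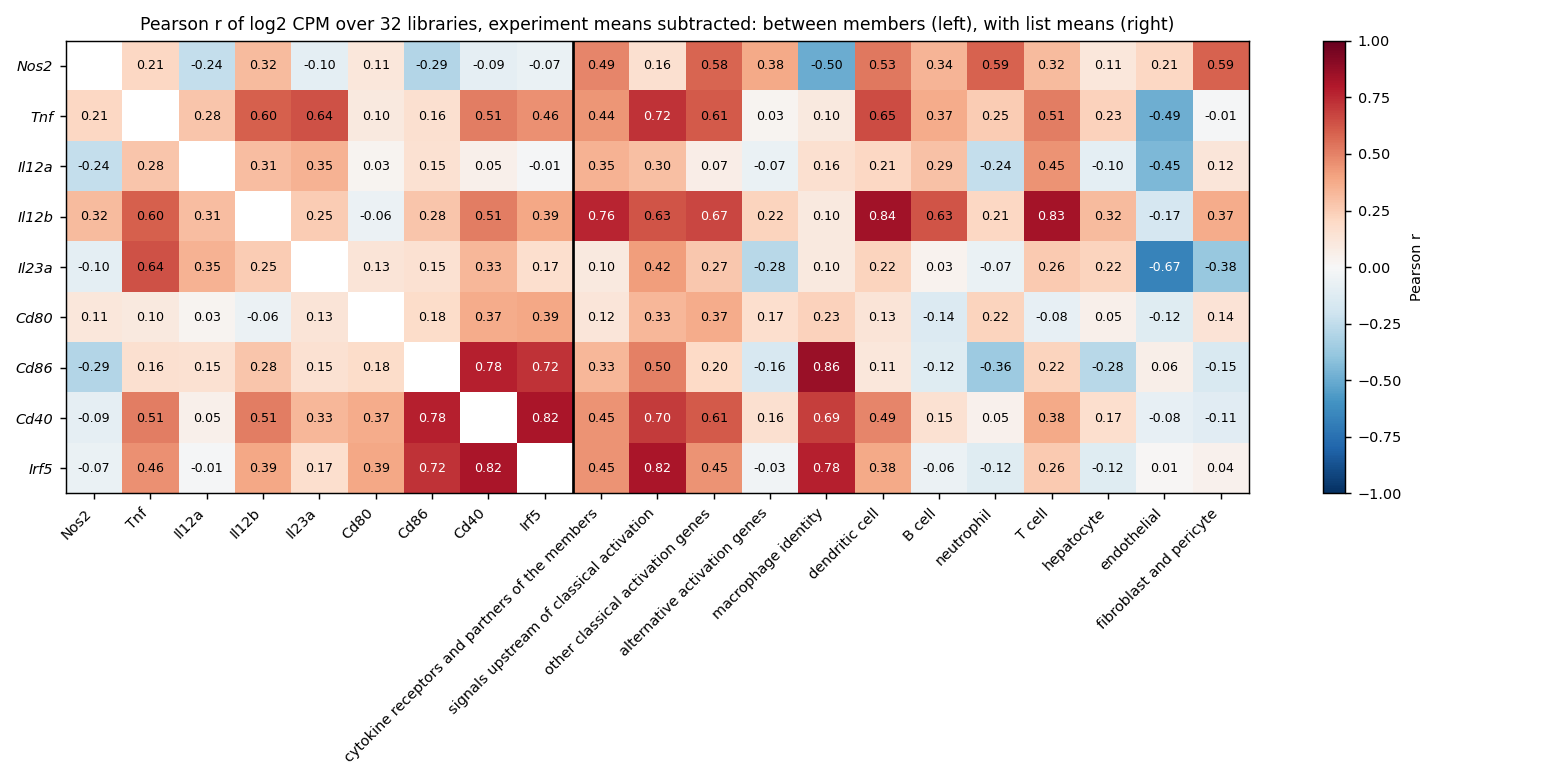
Pearson r of log2 CPM over 32 libraries, experiment means subtracted, between the 9 genes (left block) and between each gene and the mean of 12 gene lists (right block), with color and printed value for r. Cd86, Cd40 and Irf5 form a block of 0.72 to 0.82 and share high values with macrophage identity, while Il12b is highest with dendritic cell (0.84) and T cell (0.83) genes.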

How the data were processed

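Polyadenylated RNA of 32 tumours was sequenced as stranded libraries. The labels give frozen tissue for extraction, while the study's methods call the samples fresh. The deposited tables hold raw read counts per gene, which the authors made by trimming with cutadapt (2.4) and by alignment and gene counting with STAR (2.7.2a) on GRCm38 with GENCODE gene models. The strand column that was taken is not given in the sources used here. Of 54446 gene identifiers, 54409 (99.93%) had a symbol in the name table used.

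Counts were scaled by TMM within each experiment, and levels are CPM or log2 CPM with a prior count of 2. Genes passed filterByExpr (minimum count 10, total 15) and were tested with edgeR (4.0.16, R 4.3.3) by its robust quasi-likelihood F-test, 2-sided, on all groups of an experiment, with Benjamini-Hochberg adjustment over all genes tested and a threshold of 0.05. The fit over 3 experiments held vehicle and low dose libraries with experiment as a term, and all 9 members passed its filter, so that no permutation test was needed. SE and 95% intervals come from the fit. The mean log2 CPM of a list summarises its genes. Replicates of a group were not duplicates: chi-square per degree of freedom was 13.97 to 918.5 over 36 pairs.

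The members and the 12 gene lists (157 entries) were chosen with earlier results of these data known. Beside the 9 members, the text names list genes past the threshold (up to 4 of smallest adjusted p per comparison), fixed genes (Ifng, Il6, Il1b, Cxcl9, Cxcl10, Adgre1, Csf1r, Cd68 and Mrc1), and the 5 genes most like each member that was tested in all 3 experiments. Some genes that these rules select are not reported here. Simulated counts with known changes were used to test the scripts. Alternatives were DESeq2 (1.42.0), limma voom (limma 3.58.1), other scaling, no filter, a replicate block, covariates and leaving out libraries or experiments.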

Additional observations from a re-analysis of the deposited data

Results flagged for a closer look

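In 1 group of 4 tumours a single library stood far from the rest: Il12b in vehicle replicate 2 of the dose experiment was at -1.99 log2 CPM, on 3 reads, with a gap of 0.891 of the group's range to the nearest of the others, above Dixon's critical value for 4 samples. Chance alone gives such a gap in about 1 in 20 groups. The change of Cd80 with low dose differed in direction between experiments, at 1.33 in the DC-101 experiment, -0.698 in the dose experiment and -0.858 in the anti-PD1 experiment. By edgeR's test of that difference the unadjusted p was 0.000466 and the adjusted p 0.387, so it did not pass after adjustment. Every low dose tumour lay above every vehicle tumour in the DC-101 experiment and below every vehicle tumour in the others.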

How the results depend on the processing

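The 0 to 86 reads per library of the interleukin subunits and the groups of 3 or 4 tumours limit what can be seen, and small changes could be missed in every comparison. Counts of members past the threshold changed as follows. For high dose, where 2 members passed, 0 passed with total count scaling, a macrophage identity covariate, a hepatocyte covariate or only the groups compared, 1 passed with no filter on low counts, and between 0 and 3 passed without 1 library. For low dose in the dose experiment 2 passed by DESeq2 (Nos2 and Tnf), and for low dose in the DC-101 experiment 1 passed with no filter (Il23a) and 3 by DESeq2 (Tnf, Il23a and Cd80), against 0 by edgeR. For low dose over 3 experiments, where 1 passed, 3 passed by DESeq2 (Il23a, Tnf and Il12a), 2 by limma voom (Il23a and Tnf), 0 with the hepatocyte covariate, 0 without the DC-101 experiment, 1 without the anti-PD1 experiment (Tnf at 1.58, with Il23a at 1.94 and an adjusted p of 0.0552), and between 0 and 2 without 1 library. With the filter by treatment alone, chosen after seeing the data, 1 passed (Il23a at 1.73, adjusted p 0.0206) and Il12b was not tested. Beside these and the replicate block described below, no other count of members changed under the alternatives run. Over all genes, the 2582 calls for high dose became 5275 by DESeq2, 1349 by limma voom, 282 with total count scaling, 416 with no filter, 138 with the hepatocyte covariate, 4 with the macrophage identity covariate, 4 with only the groups compared, 1 with the replicate block, and between 15 and 7030 without 1 library. The 262 calls for low dose over 3 experiments became 1061 by DESeq2, 153 with no filter, 68, 35 and 394 when the dose, the DC-101 or the anti-PD1 experiment was left out. The cause of these changes was not tested.

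Whether replicate numbers pair the tumours could not be settled. Over 9, 9 and 18 pairs of libraries with the same number, the correlation of deviations from group means was above 0.1 in 2, 4 and 6 pairs. It ran from -0.72 to 0.56, -0.46 to 0.67 and -0.28 to 0.62. Pairs of different number were not compared, so there is no baseline for these values. With the replicate block 0 members passed for high dose and 0 for low dose over 3 experiments, where Il23a stayed at 1.73 (adjusted p 0.0516).

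Log2 changes that turned direction were not past the threshold. With the macrophage identity covariate Nos2 was at -0.954 and Cd40 at 0.114 for high dose, Cd86 at -0.0194 for anti-PD1, Nos2 at 0.317, Cd86 at -0.175 and Cd40 at -0.203 for the combination against vehicle, and Nos2 at 0.348 and Cd80 at 0.248 for low dose over 3 experiments. With the hepatocyte covariate Cd86 was at -0.0402 for low dose in the anti-PD1 experiment, Cd86 at -0.0351 and Irf5 at -0.299 for anti-PD1, and Cd86 at 0.0729 for the combination against anti-PD1. For DC-101, Irf5 was at 0.00525 with RLE size factors, 0.0205 with no filter, 0.00528 by DESeq2, 0.0158 by limma voom and 0.0145 with only the groups compared. For low dose in the anti-PD1 experiment Irf5 was at 0.00446 with no filter and 0.0119 by limma voom, and for anti-PD1 Il12a was at 0.026 and Il12b at 0.891 by limma voom. For low dose over 3 experiments Nos2 was at 0.478 and Cd80 at 0.334 without the dose experiment, and Cd80 at 0.365 without the anti-PD1 experiment.

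Without 1 library, some log2 changes crossed 0. For anti-PD1 Cd40 ran from -0.386 to 0.272, Cd86 from -0.0335 to 0.799, Il12a from -0.458 to 0.191, Il12b from -0.622 to 2.5, Irf5 from -0.0708 to 0.229 and Tnf from -0.42 to 0.469. For the combination against anti-PD1 Cd40 ran from -0.0897 to 0.622, Cd80 from -0.235 to 0.494, Cd86 from -0.489 to 0.109 and Il23a from -0.173 to 0.364, and against vehicle Cd40 from -0.255 to 0.597, Cd86 from -0.206 to 0.621 and Nos2 from -1.8 to 0.259. For low dose in the anti-PD1 experiment Cd40 ran from -0.551 to 0.328, Cd86 from -0.196 to 0.64, Irf5 from -0.195 to 0.105, Nos2 from -1.66 to 1.14 and Tnf from -0.107 to 0.776. For low dose over 3 experiments Cd80 ran from -0.171 to 0.0864 and Nos2 from -1.08 to 0.154. For DC-101 Cd86 ran from -0.545 to 0.0121, Il12a from -0.395 to 0.522 and Irf5 from -0.165 to 0.205, and for low dose in the DC-101 experiment Cd86 ran from -0.0964 to 0.364 and Nos2 from -0.701 to 1.73.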

Other observations

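Likeness to gene lists differed between members, as Pearson's r over 32 libraries after subtraction of experiment means, which share treatments and depth and so carry no test. Nos2 had its highest values with the neutrophil mean and the fibroblast and pericyte mean (0.59 each). Those with other classical activation genes (0.58) and dendritic cell genes (0.53) were close to these. The lowest value of Nos2 was with the macrophage identity mean (-0.5). By experiment, Nos2 had 0.76 (anti-PD1), 0.69 (DC-101) and -0.17 (dose) with other classical activation genes. In the same order it had 0.63, 0.47 and 0.73 with the neutrophil mean. With the fibroblast and pericyte mean it had 0.85, 0.46 and 0.23, and with macrophage identity -0.58, -0.19 and -0.87. Il23a was inverse to the endothelial mean (-0.67 in all libraries, -0.6 in the dose experiment, -0.85 in that with DC-101 and -0.52 in that with anti-PD1), and Irf5 was near the mean of signals upstream of classical activation (0.82).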
